A study of Mus musculus with 3 samples.

Results

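The genes described here encode proteins that neurons use to build axons and to release transmitter. They are Snap25, Syt1 and Syn1 of the synaptic vesicle machinery, Nefl, Nefm, Stmn2 and Stmn3 of the neuronal cytoskeleton, and Rbfox3, Camk2a and Gad1, which mark neurons or classes of neurons. These 10 genes, of 29917 with a transcript in the files, were chosen by name, and each was represented by its transcript with the largest total count. They were measured by sequencing of polyadenylated RNA from isolated mouse brain vessels, a preparation made to hold endothelial cells, smooth muscle cells and pericytes rather than neurons.

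There were 3 libraries, 1 per group, each from vessels pooled from 3 male mice aged 3 months. The first came from C57BL6 WT mice, the second from WT mice of a C57BL6-BALB/c background, and the third from Cx30-/- mice, in which the gap junction protein Cx30 is deleted in all cells. GEO's label gives the Cx30-/- library a C57BL6 background, while the study's methods give the mixed one, so that background and deletion cannot be told apart in a single comparison. Because each group is 1 pool, no difference between groups could be set against a spread between mice, and every interval below is an exact 95% interval of read sampling alone.

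A synaptic vesicle fuses with the plasma membrane when SNARE proteins on the vesicle and on the membrane zip together, and synaptotagmin triggers this step when calcium enters. Synapsins tether vesicles in a reserve pool near the release site. Neurofilaments set the caliber of axons, and stathmins bind tubulin and promote the disassembly of microtubules. Neurons are the main source of these transcripts in brain, and preparations of brain vessels can carry neuronal processes that stay attached to the vessel wall. In such bulk RNA, fewer neuronal elements and less RNA per element cannot be told apart.

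Gjb6, the gene of Cx30, checked the deletion. Its normalized counts were 2531 and 2426 in the C57BL6 and C57BL6-BALB/c WT libraries and 101 in the Cx30-/- library, a log2 ratio of -4.65 against the first (interval -4.96 to -4.36). Summed over all transcripts, the deposited counts were between 50375426 and 60725557 per library, with a read counted for every transcript that it touches. The library totals behind the deposited fractions were 24830975 for C57BL6 WT, 21170766 for C57BL6-BALB/c WT and 20654144 for Cx30-/-. All 12 endothelial markers examined were detected in each library, and all 10 neuronal genes had over 700 counts in every library. Normalized counts are the deposited counts divided by a size factor per library.

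The neuronal genes were lower in Cx30-/- vessels than in either WT library, with 1 exception. Levels were lowest in the Cx30-/- library for 9 of the 10 genes, while 36.6% of the 14688 genes with enough counts were lowest there. The exception was Stmn2, which was highest in the Cx30-/- library, and lower there too when counts were scaled to endothelial genes instead. Summed over the 10 genes, normalized counts were 52956 in C57BL6 WT, 69650 in C57BL6-BALB/c WT and 39996 in Cx30-/- vessels, or 0.251%, 0.316% and 0.189% of the counts of all genes. The order of the libraries was thus the same for the sum as for 7 of the genes, with the mixed WT library at the top and the Cx30-/- library at the bottom. No member differed by 2-fold in any of the comparisons with this scaling and these transcripts. Against C57BL6-BALB/c WT, 9 did when counts were scaled to endothelial genes, which shifts every gene by -0.996 in this comparison. In the same comparison, 3 did with the longest transcript of each gene and 2 with its transcripts summed. For Snap25 and Gad1 the longest transcript is 1 with a retained intron. The share of all genes past 2-fold was not counted under these settings.

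**Figure D1:**
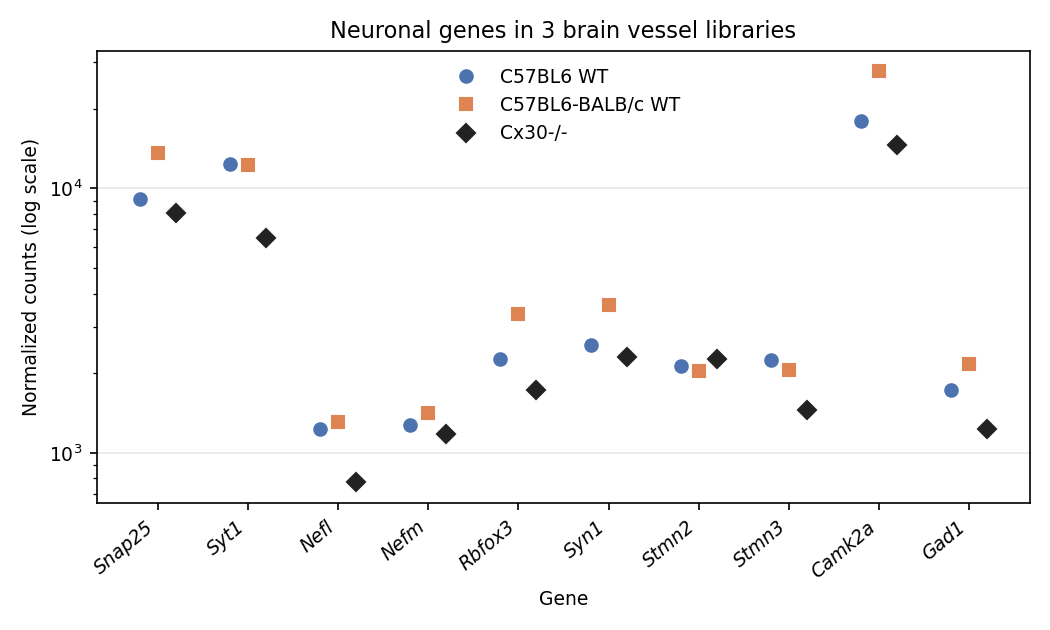
Normalized counts (log axis) of the 10 neuronal genes in the 3 libraries, 1 point per library and no error bars because each group is a single pool. The Cx30-/- point (black diamond) is the lowest for every gene except Stmn2, where it is the highest at 2267 with this scaling (lower than both WT libraries when scaled to endothelial genes).

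Snap25 (ENSMUSG00000027273, chr2:136713453-136782428 on GRCm38, plus strand) encodes the SNARE protein of the presynaptic membrane. Vessels of C57BL6 WT mice had 9137 normalized counts, those of C57BL6-BALB/c WT mice 13657 and those of Cx30-/- mice 8042. The Cx30-/- level was close to that of C57BL6 WT, with a log2 ratio of -0.18 (-0.23 to -0.14), and further from that of C57BL6-BALB/c WT, with -0.76 (-0.81 to -0.72). The WT libraries differed from each other by 0.58 (0.54 to 0.62), more than the Cx30-/- library differed from C57BL6 WT.

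Syt1 (ENSMUSG00000035864, chr10:108497650-109010982, minus strand) encodes synaptotagmin, the calcium sensor of fast release. Its normalized counts were 12383, 12286 and 6474, the libraries being in the same order. Here the WT libraries were alike and the Cx30-/- library stood apart from both, with log2 ratios of -0.94 (-0.98 to -0.89) and -0.92 (-0.97 to -0.88). Between the WT libraries the log2 ratio was -0.01 (-0.05 to 0.02). Syt1 was the member with the largest difference from C57BL6 WT, 47.7% lower.

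Syn1 (ENSMUSG00000037217, chrX:20860511-20921004, minus strand) encodes synapsin, which coats vesicles and holds them in reserve. Both WT libraries, with 2547 normalized counts in C57BL6 and 3626 in C57BL6-BALB/c, were above the Cx30-/- library with 2302. Its pattern was that of Snap25: log2 ratios of -0.15 (-0.23 to -0.07) against C57BL6 WT, -0.66 (-0.73 to -0.58) against C57BL6-BALB/c WT, and 0.51 (0.44 to 0.58) between the WT libraries. The 3 vesicle genes therefore differed in their proportions among libraries, and Snap25 had 0.738 counts for each count of Syt1 in C57BL6 WT, 1.11 in C57BL6-BALB/c WT and 1.24 in Cx30-/- vessels.

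Syn1 and Syt1 are both transcribed from promoters that RefSeq lists on GRCm38.p6, and the bases before their starts are shown. Whether these bases bear on the levels of either gene was not tested. Promoters were listed for 5 members, Gad1, Rbfox3, Stmn3, Syn1 and Syt1, and were searched on both strands for the left part of the RE1 site (TTCAGCACC), which binds the repressor of neuronal genes REST, for the cyclic AMP response element (TGACGTCA), and for the CCAAT and GGGCGG boxes. Capitals mark the matches, and both sequences stop where the annotated transcripts begin. They lie at chrX:20921005-20921168 and chr10:109010983-109011225, on the minus strand, and are written in the direction of transcription.
Syn1: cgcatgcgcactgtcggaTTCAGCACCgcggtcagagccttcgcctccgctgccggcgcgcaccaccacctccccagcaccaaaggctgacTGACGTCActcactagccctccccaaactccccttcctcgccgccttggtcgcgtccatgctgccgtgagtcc
Syt1: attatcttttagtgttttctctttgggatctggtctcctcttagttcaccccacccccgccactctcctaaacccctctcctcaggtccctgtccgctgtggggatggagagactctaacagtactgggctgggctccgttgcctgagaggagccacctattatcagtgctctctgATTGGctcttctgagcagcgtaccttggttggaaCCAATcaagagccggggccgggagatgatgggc
The RE1 letters were in the 250 bases before the start of 99 of 32851 promoters (0.301%), and among the members with a promoter only in Syn1, which also held the cyclic AMP element found in 1.55% of promoters. CCAAT stood in 33.9% of all promoters, in that of Rbfox3 and in the Syt1 promoter shown. GGGCGG stood in 32.7% in that of Gad1 and in the same Syt1 promoter, past the part shown. A second Syt1 promoter, at chr10:109009112-109009361, held none of the letters searched. These are matches of letters, and binding was not measured.

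Of the cytoskeletal members, Nefl (ENSMUSG00000022055, chr14:68083863-68089095, plus strand), the light subunit around which neurofilaments assemble, was at 1232 and 1312 normalized counts in the C57BL6 and C57BL6-BALB/c WT libraries and at 773 in the Cx30-/- library. Its log2 ratios were -0.67 (-0.80 to -0.54) and -0.76 (-0.90 to -0.63), with the WT libraries within 0.09 (-0.02 to 0.20) of each other. Nefm (ENSMUSG00000022054, chr14:68082590-68124846, minus strand), the medium subunit, had 1278, 1416 and 1175 normalized counts. Its log2 ratios were smaller, -0.12 (-0.23 to -0.01) and -0.27 (-0.39 to -0.15). For the transcripts used, there were 0.964 and 0.927 Nefl counts per Nefm count in the WT libraries and 0.658 in the Cx30-/- library. This rests on the choice of transcript, since the longer Nefm transcript, with 585, 681 and 354 counts, had log2 ratios of -0.46 and -0.99, beside -0.67 and -0.76 for Nefl. An annotated Nefm exon on the opposite strand covers 1108 of the 3380 bases of the Nefl transcript, and the libraries did not mark strand. The Nefm transcript used ends before it reaches Nefl, while the longer one runs on into the span of Nefl. Counts of the longer Nefm transcript may therefore hold reads of Nefl, and those of Nefl may hold reads of that transcript. The longer transcript is thus no separate check of the Nefm values.

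Stmn2 (ENSMUSG00000027500, chr3:8509360-8561606, plus strand) encodes the stathmin of growing and regenerating axons. Its normalized counts were 2138 and 2037 in the C57BL6 and C57BL6-BALB/c WT libraries and 2267 in the Cx30-/- library, the narrowest range of any member. Its log2 ratios were 0.08 (0.00 to 0.17) and 0.15 (0.06 to 0.24), and both turned negative when counts were scaled to the endothelial genes instead. Its relative Stmn3 (ENSMUSG00000027581, chr2:181306459-181314500, minus strand) had 2253, 2049 and 1454 normalized counts. Its log2 ratios were -0.63 (-0.73 to -0.54) and -0.49 (-0.60 to -0.39). Counts of Stmn2 per count of Stmn3 were 0.949 and 0.994 in the WT libraries and 1.56 in the Cx30-/- library. Against Syt1, the member with the other extreme, Stmn2 had 0.173, 0.166 and 0.350 counts per count. Both ratios stand within single libraries and do not depend on how the libraries were scaled.

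Rbfox3 (ENSMUSG00000025576, chr11:118489762-118911597, minus strand) encodes NeuN, the splicing factor used to stain neuronal nuclei. The C57BL6 WT library had 2255 normalized counts, the C57BL6-BALB/c WT library 3349 and the Cx30-/- library 1728. The log2 ratio against C57BL6-BALB/c WT, -0.95 (-1.04 to -0.87), was the largest of any member in that comparison, and against C57BL6 WT it was -0.38 (-0.47 to -0.29).

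Camk2a (ENSMUSG00000024617, chr18:60925618-60988152, plus strand) encodes a kinase of excitatory forebrain neurons whose mRNA is carried into dendrites. It had the most counts of any member, 18009, 27757 and 14552, and the largest difference between the WT libraries, 0.62 on the log2 scale (0.60 to 0.65). Its log2 ratios were -0.31 (-0.34 to -0.28) and -0.93 (-0.96 to -0.90).
Gad1 (ENSMUSG00000070880, chr2:70553072-70602014, plus strand) encodes an enzyme that makes the inhibitory transmitter GABA. Its normalized counts were 1725, 2160 and 1230, and the log2 ratios -0.49 (-0.59 to -0.38) and -0.81 (-0.92 to -0.71). There were 10.4 counts of the excitatory marker Camk2a per count of Gad1 in C57BL6 WT, 12.8 in C57BL6-BALB/c WT and 11.8 in Cx30-/- vessels. With the longest transcript of each gene, the log2 ratio of Gad1 against C57BL6-BALB/c WT was -1.85 and that of Camk2a -0.92. These are unlike transcripts, since the longest of Gad1 has a retained intron and the longest of Camk2a is the coding transcript used. The former had only 100, 158 and 45 counts, beside 1975, 2000 and 1172 for the Gad1 transcript used.

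Over the members, the median log2 ratio was -0.35 against C57BL6 WT (SD over the genes 0.31, n = 10 genes) and -0.76 against C57BL6-BALB/c WT (SD 0.35). The median over all genes with enough counts was -0.0046 and 0.0040. Against C57BL6 WT, 9 members were lower, beside 50.7% of 14776 genes, and 3 (Syt1, Nefl and Stmn3) were lower by at least 1.5-fold, beside 5.85%. None (0) reached 2-fold, beside 1.26%. Against C57BL6-BALB/c WT, 9 were lower, beside 49.7% of 14891 genes, 7 were lower by at least 1.5-fold, beside 14.8%, and 0 by 2-fold, beside 4.73%. Both comparisons use the same Cx30-/- library, so they are not separate evidence.

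**Figure D2:**
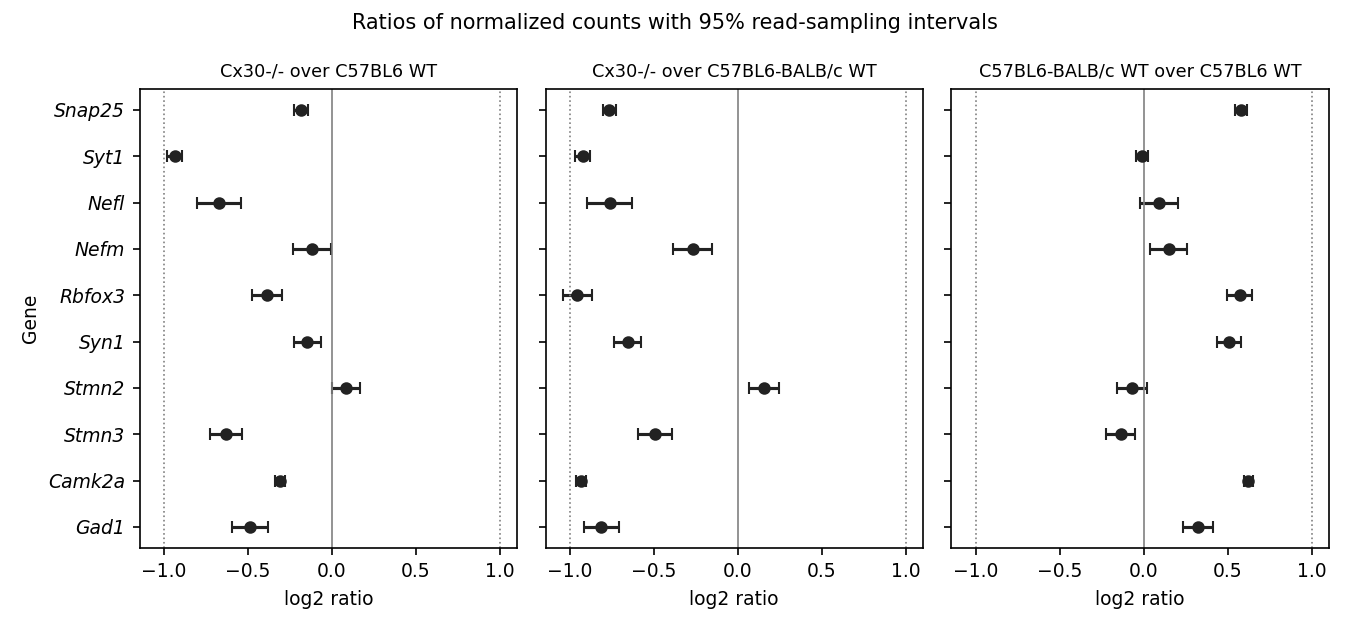
Log2 ratio of normalized counts of each neuronal gene in the 3 comparisons, with the exact 95% interval of read sampling as a bar and dotted lines at 2-fold. Against C57BL6 WT the points run from -0.94 (Syt1) to 0.08 (Stmn2), against C57BL6-BALB/c WT from -0.95 (Rbfox3) to 0.15 (Stmn2), and between the WT libraries from -0.14 (Stmn3) to 0.62 (Camk2a).

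The WT libraries give the only measure of how far 2 libraries without the deletion differ. Between them, 7 members were higher in C57BL6-BALB/c WT, beside 50% of 14791 genes, and the median was 0.24. Only Camk2a passed 1.5-fold, beside 7.34%, and 0 members passed 2-fold, beside 1.41%. For Snap25, Nefm, Rbfox3, Syn1 and Camk2a the difference between the WT libraries was larger than that between Cx30-/- and C57BL6 WT. For Syt1, Nefl, Stmn3 and Gad1 it was smaller than both differences from the Cx30-/- library, and for Stmn2 all 3 differences were small. This sorting depended on the settings. For Gad1 the WT difference was larger than that from C57BL6 WT with the longest transcript (0.96 beside -0.89) and with endothelial scaling (1.06 beside -0.75). For Nefm the WT difference was the smaller when scaled to library sums (0.09 beside -0.12). With endothelial scaling, Stmn2 had 0.67 between the WT libraries.

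As a test across genes, the Cx30-/- library was set against both WT libraries as 1 group with edgeR's quasi-likelihood test, whose error comes from the WT pair alone and holds their difference in background. It called 9 of 17576 genes (0.0512%) at a Benjamini-Hochberg adjusted p under 0.05, and 0 of the 10 members. Their adjusted p ran from 0.456 for Nefl to 0.966 for Stmn2 (edgeR). At an unadjusted p under 0.05 in edgeR stood Nefl, Gad1, Syt1 and Rbfox3, 4 of the members, and 1528 of all genes. With DESeq2 likewise 0 members were called, beside 11 of the 6787 genes to which it gave an adjusted p. Of those genes 450 had an unadjusted p under 0.05, among them 2 members, and the lowest adjusted p of a member was 0.3025, for Syt1.

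Per kilobase of transcript, the order of the members was Snap25, Camk2a and Syt1 from the top in every library, and Nefl was last in each. In C57BL6 WT the normalized counts per kilobase were 4318 for Snap25, 3624 for Camk2a, 2569 for Syt1, 1983 for Stmn3, 1119 for Stmn2, 799 for Syn1, 731 for Rbfox3, 514 for Gad1, 383 for Nefm and 365 for Nefl. Neighbours in this order differed beyond read sampling except Nefm and Nefl. Counts per kilobase take reads to be even along a transcript. In C57BL6 WT the Snap25 transcript of 1014 bases had 2389 counts, beside 10464 for the 2116 bases of the one used. The part of uneven coverage and transcript length in this order was not tested. The Cx30-/- library brought the lower vesicle sensor and the stathmins together, with 1343 for Syt1, 1280 for Stmn3 and 1187 for Stmn2, and the first pair did not differ beyond sampling (log2 0.07, -0.01 to 0.15). In that library Gad1, at 366, and Nefm, at 352, did not differ either (0.06, -0.06 to 0.18). In C57BL6-BALB/c WT the neighbours Syn1, Rbfox3 and Stmn2 at 1138, 1086 and 1067 were not separated.

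The wider pathways had medians below 0 against both WT libraries. Beside the counts of each list below, 36.6% of 14688 genes were lowest in the Cx30-/- library. Some of the lists include members, such as Syt1 and Stmn2, so their counts are not separate from those above. Of 22 genes of SNARE complexes and vesicle release, 20 were lowest in the Cx30-/- library, and the median log2 ratios were -0.34 against C57BL6 WT and -0.76 against C57BL6-BALB/c WT. Syt1 was the lowest against C57BL6 WT. Against C57BL6-BALB/c WT it was Unc13a, a priming factor for vesicles, with -1.77 (-1.83 to -1.70) and levels of 5004, 9018 and 2648 normalized counts in C57BL6 WT, C57BL6-BALB/c WT and Cx30-/- vessels. The exceptions were its relative Unc13b (0.14 against C57BL6 WT, -0.31 against the mixed WT) and the vesicle SNARE Vamp2 (-0.28 and 0.04). No gene of this list was 2-fold lower in both comparisons.

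Of 18 genes of vesicle membranes and transmitter loading with enough counts, 15 were lowest in Cx30-/- vessels, with medians of -0.61 and -0.88. Synpr, a vesicle membrane protein, was at 1012, 902 and 435 normalized counts in C57BL6 WT, C57BL6-BALB/c WT and Cx30-/- vessels, with log2 ratios of -1.22 and -1.05. Sv2b, another vesicle glycoprotein, had 3049, 3171 and 1407, with -1.12 and -1.17. Slc32a1, the transporter that loads GABA and glycine into vesicles, had 1046, 1015 and 495, with -1.08 and -1.04. These 3 genes were among 100 of 14688 that were at least 2-fold lower in Cx30-/- vessels against each WT library. That count set no condition on the WT levels, which were similar for these 3. However, their adjusted p in edgeR was 0.226, 0.231 and 0.234. Syn3 and Sncb were among the exceptions, and the log2 ratios of Sncb were 0.06 against C57BL6 WT and -0.24 against the mixed WT.

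Among 15 genes of neurofilaments and microtubules, 14 were lowest in Cx30-/- vessels, with medians of -0.41 and -0.76. Stmn4, the neuronal stathmin next in kinship to Stmn2 and Stmn3, had 1635, 1646 and 509 normalized counts, and its log2 ratios were -1.68 (-1.83 to -1.54) and -1.69 (-1.84 to -1.55). It was the single gene of the neuronal lists that edgeR called (adjusted p = 0.02943). Within the stathmin family the values therefore ran from 0.08 for Stmn2 through -0.63 for Stmn3 to -1.68 for Stmn4 against C57BL6 WT, and Stmn1, with 89, 140 and 80 normalized counts, had -0.16 (-0.61 to 0.28). Map1b, a microtubule-binding protein, was the highest gene of the list in the comparison of the WT libraries, at 1.04.

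Of the 10 neuronal RNA-binding genes, 9 were lowest in Cx30-/- vessels, with medians of -0.34 and -0.91, and all 10 were higher in C57BL6-BALB/c WT than in C57BL6 WT. Celf5, a splicing regulator, had 7263, 14353 and 5937 normalized counts, and was lowest against the mixed WT, at -1.27. Elavl2, which binds and stabilizes mRNA, was lowest against C57BL6 WT, at -0.46, and Nova2 was the exception, at 0.26 and 0.15.

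At excitatory postsynapses, 12 of 14 genes were lowest in Cx30-/- vessels, with medians of -0.34 and -0.76. Shank1, a scaffold of the postsynaptic density, had 6062, 12843 and 4402 normalized counts, and log2 ratios of -0.46 and -1.54. Homer1, a scaffold that binds Shank proteins, was lowest against C57BL6 WT, at -0.84, and lowest also between the WT libraries, at -0.62. Shank3 (0.10 and -0.18) and Nrgn (-0.03 and 0.09) were the exceptions.

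For 12 genes of GABA neurons the medians were -0.51 and -0.85, and 10 were lowest in Cx30-/- vessels. Slc32a1 was the lowest against C57BL6 WT. Gad2, which encodes the vesicle-associated partner of Gad1, had 872, 1595 and 654 normalized counts, and was lowest against the mixed WT, at -1.29. The exceptions were Pvalb, a calcium buffer of fast-spiking interneurons (0.17 and 0.47), and Lhx6, a transcription factor of the same lineage (0.38 and -0.67).

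Altogether 90 genes of these lists had enough counts and 79 were lowest in the Cx30-/- library, and without the members 70 of 80, beside 36.6% of 14688 genes. Their medians without the members were -0.41 and -0.80, against -0.35 and -0.76 for the members. Each list was drawn up by name with earlier results of these data known.

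**Figure D3:**
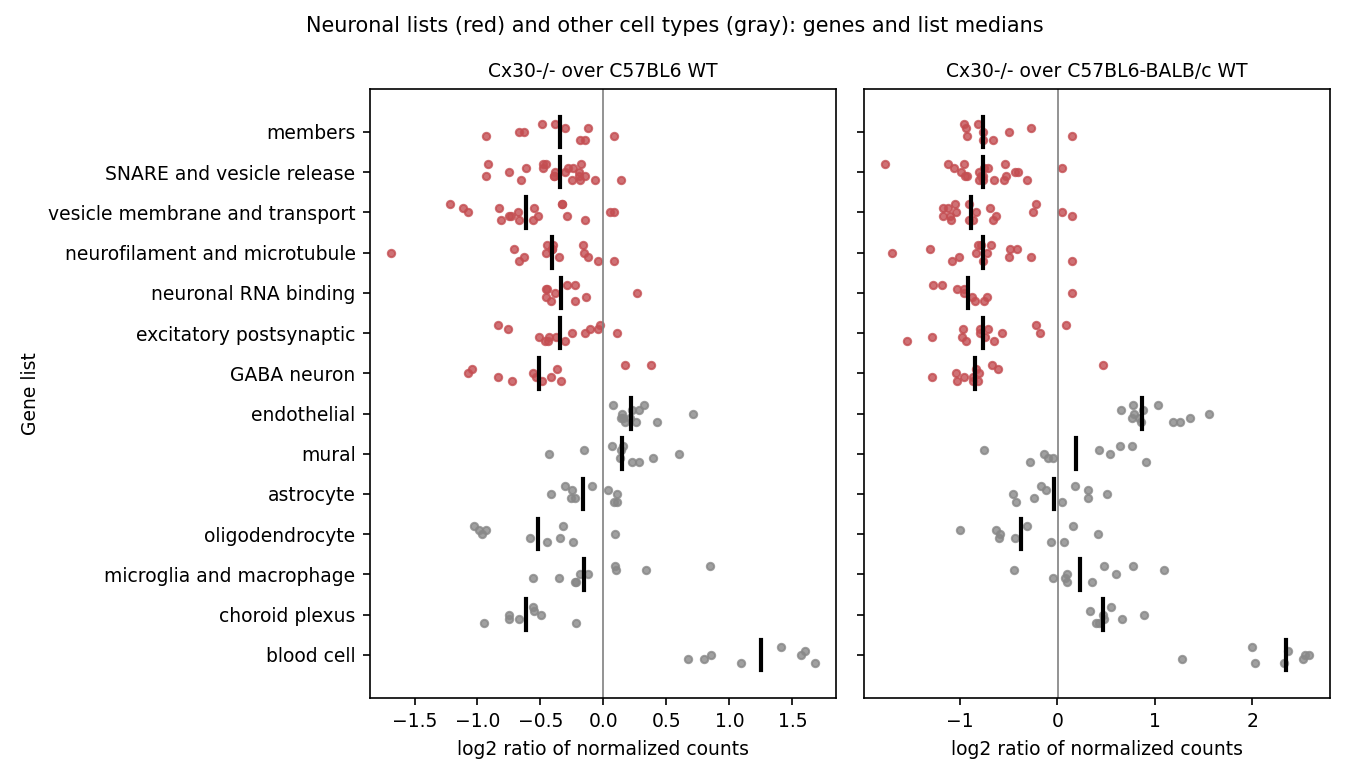
Log2 ratio of each gene (points) in the neuronal lists (red) and in lists of other cell types (gray), with the list median as a black bar, for Cx30-/- over each WT library. The red medians lie between -0.61 and -0.34 in the left panel and between -0.91 and -0.76 in the right, while the endothelial medians are 0.22 and 0.87.

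Values of the members' relatives are set side by side with no test of likeness. Camk2b had log2 ratios of -0.51 and -0.98, Gad2 of -0.42 and -1.29, Syt2 of -0.75 and -0.99, and Syn2 of -0.52 and -1.10. Rbfox1 had -0.23 and -0.84, Rbfox2 -0.46 and -0.87, and the neurofilament genes Nefh -0.15 and -0.83 and Ina -0.41 and -1.31. Syn3 was at 0.08 and 0.05, but 1733 of the 4775 bases of its transcript overlap exons of Timp3 on the other strand, which had 19246 to 21504 normalized counts. Reads of Timp3 and Syn3 could not be separated. Exons of Nt5c2 likewise cover 456 bases of Ina. Prph, the neurofilament of peripheral and some brainstem neurons, had 22 to 29 normalized counts and was below the minimum of 50.

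Markers of other cell types differed among the libraries as well. All 12 endothelial genes were higher in Cx30-/- vessels than in either WT library, beside 5454 of 14688 genes, with medians of 0.22 and 0.87. All 12 were lower in C57BL6-BALB/c than in C57BL6 WT, beside 7392 of 14791 genes, with a median of -0.70. Their summed share of counts was 0.762% in C57BL6 WT, 0.458% in C57BL6-BALB/c WT and 0.928% in Cx30-/- vessels, in the reverse order of the neuronal lists, with 1.43%, 1.81% and 1.09%. Mural genes had medians of 0.15 and 0.19, and their extremes were Kcnj8 (-0.43) and Myh11 (0.60) against C57BL6 WT and Cnn1 (-0.75) and Rgs5 (0.91) against C57BL6-BALB/c WT. The part of these proportions in the neuronal values was not tested.

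Glial lists did not follow 1 pattern. Astrocyte genes had medians of -0.16 and -0.04, with Slc1a2 lowest in both comparisons (-0.42 and -0.46) and S100b highest (0.11 and 0.51). Oligodendrocyte genes had -0.52 and -0.38, from Opalin at -1.03 to Mal at 0.09 against C57BL6 WT and from Ugt8a at -0.99 to Mal at 0.41 against C57BL6-BALB/c WT, and 7 of 10 were lowest in Cx30-/- vessels. Microglial and macrophage genes had -0.15 and 0.23, from Cx3cr1 at -0.56 to Cd163 at 0.85 against C57BL6 WT and from Aif1 at -0.44 to Mrc1 at 1.09 against C57BL6-BALB/c WT.

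Choroid plexus genes mark the tissue that secretes cerebrospinal fluid. All 8 were lower against C57BL6 WT, beside 50.7% of 14776 genes, with a median of -0.61. All 8 were higher against C57BL6-BALB/c WT, beside 7484 of 14891 genes, with 0.47. Ttr, the transport protein that leads this list, had 137640, 52930 and 71366 normalized counts. The 8 blood cell genes with enough counts were higher in Cx30-/- vessels in both comparisons, beside 5454 of 14688 genes, with medians of 1.25 and 2.34. Of the blood cell genes, Alas2, S100a8, S100a9, Ngp and Camp passed 2-fold in each, beside 109 of 14688 genes. Summed normalized counts of that list were 1578, 827 and 3580. Scaling to the endothelial genes shifts every median by -0.26 and -0.996. By construction this removes the endothelial difference, and it turns the endothelial and mural medians negative in both comparisons. Those of microglia and choroid plexus turn negative against C57BL6-BALB/c WT. The part of these marker levels in the neuronal values was not tested.

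Within a gene, some transcripts end before the 3′ end of the transcript used above. Since the counting assigned a read to every transcript that holds its exon, these transcripts share reads with the one used and are not separate measurements. Some, such as those with a retained intron, also hold bases that the transcript used lacks. The Snap25 transcript of 1014 bases, which ends 1077 bases before the end of the one used, had 2086, 3911 and 1684 normalized counts in C57BL6 WT, C57BL6-BALB/c WT and Cx30-/- vessels. Its log2 ratios were -0.31 and -1.22, where the longer transcript had -0.18 and -0.76. A Camk2a transcript of 979 bases, ending 3289 bases earlier, had -0.36 and -1.36 in place of -0.31 and -0.93. A Gad1 transcript of 1705 bases had -0.72 and -1.75 in place of -0.49 and -0.81, from 107, 176 and 54 counts.

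For the 4 members with a shorter protein-coding transcript ending at least 500 bases earlier (Camk2a, Rbfox3, Snap25 and Gad1), the shorter one was lower in all 4, by a median log2 difference of -0.18 against C57BL6 WT and -0.43 against C57BL6-BALB/c WT, and was 0.28 higher between the WT libraries. Over 29 genes of the neuronal lists these medians were -0.05, -0.18 and 0.15, and the shorter transcript was lower in 20 and higher in 9 against C57BL6 WT and lower in 23 and higher in 6 against C57BL6-BALB/c WT. Over 3249 genes of any kind the medians were 0.01, -0.05 and 0.08, with the shorter transcript lower in 44.3% and 66.3%. Over 4 endothelial genes they were 0.04, -0.04 and 0.11, with the shorter transcript higher in 3 of 4 against C57BL6 WT and in 2 of 4 against C57BL6-BALB/c WT. A pair of Syt1 transcripts, 1 with a retained intron and 1 without a coding sequence, that end 129636 and 129692 bases earlier gave -1.40 and -1.45 against C57BL6-BALB/c WT, where the used transcript had -0.92, and -0.91 and -0.97 against C57BL6 WT, where it had -0.94. Across 23 neuronal genes, transcripts with a retained intron differed from the coding transcript by medians of -0.08, -0.18 and 0.13, and across 3084 genes of any kind by -0.01, -0.06 and 0.06. These comparisons were chosen after the values had been seen. For Camk2a, Rbfox3, Snap25 and Gad1, the difference from the mixed WT library therefore depended on which part of the transcript was counted. For Syt1 it differed only in transcripts with a retained intron or without a coding sequence, while both coding transcripts gave -0.92. Nefl, Stmn2 and Stmn3 had 1 transcript each, and the 2 of Syn1 both gave -0.66.

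**Figure D4:**
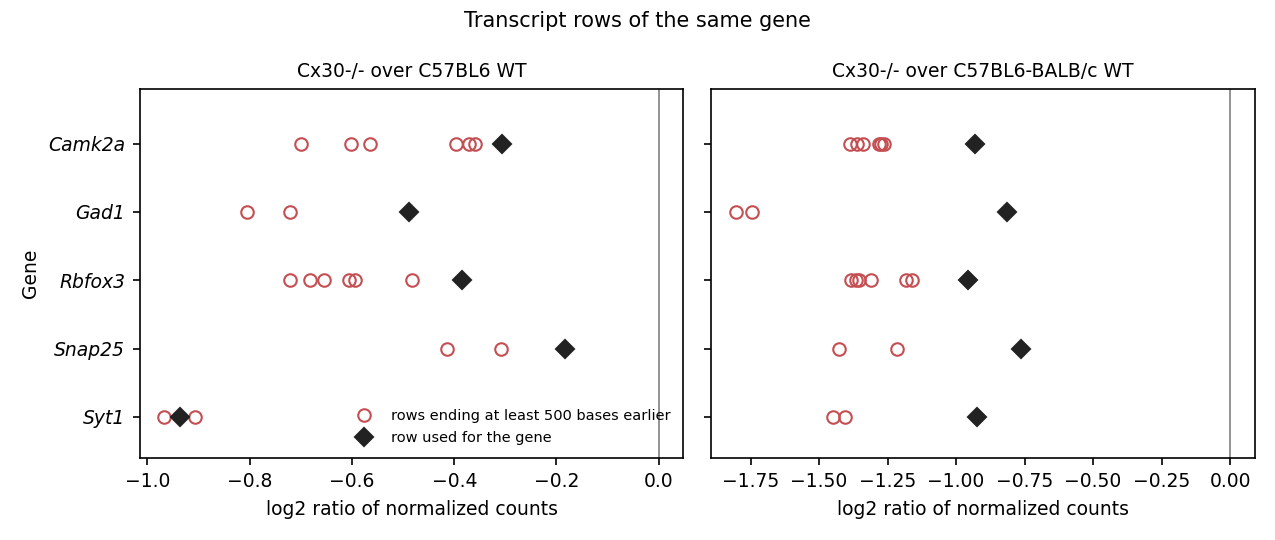
Log2 ratios of the transcript used for each gene (filled diamonds) and of its transcripts that end at least 500 bases earlier (open circles), for Cx30-/- over C57BL6 WT (left) and over C57BL6-BALB/c WT (right). In the right panel every open circle lies left of its diamond, for Snap25 at -1.22 and -1.43 beside -0.76.

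Transcript length moved with both comparisons that use the C57BL6-BALB/c WT library. Over all genes the median log2 ratio of C57BL6-BALB/c over C57BL6 WT was -0.14 for transcripts under 2 kb, -0.01 from 2 to 4 kb and 0.14 from 4 kb. In the neuronal lists these medians were 0.03, 0.43 and 0.41. Against C57BL6 WT, the neuronal medians of the Cx30-/- library were -0.46, -0.30 and -0.41 in these classes, and those of all genes 0.03, -0.01 and -0.03. Against C57BL6-BALB/c WT both sets had lower medians with length, -0.63, -0.79 and -0.91 in the neuronal lists and 0.18, 0.01 and -0.17 over all genes. The part of length in the members' values was not tested.

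On chromosome 14, which carries Gjb6, lie Nefl and Nefm, both 10.9 Mb from it, and Stmn4 at 9.21 Mb. Of the other neuronal list genes there, Erc2 at 28.6 Mb had log2 ratios of -0.65 and -0.80, and Synpr, at 43.5 Mb, is given above. Whether position near the deleted gene bears on these values was not tested.

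Among genes outside the lists with at least 500 normalized counts in every library, the 5 nearest to the members' median pair of log2 ratios were Luc7l, Bhlhb9, Zdhhc23, Jade3 and Inha, at distances of 0.016 to 0.031. Luc7l had 4174, 5662 and 3310 normalized counts and log2 ratios of -0.33 and -0.77. Of 7741 such genes, 109 were within a distance of 0.1. Among the members themselves, Gad1 and Snap25 were nearest to the median pair (0.15 and 0.16) and Stmn2 was farthest (1.01).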

How the data were processed

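Polyadenylated RNA of isolated brain vessels was sequenced in single 50-base reads from 3 libraries. After trimming and quality filters, the authors mapped the reads with Bowtie (mm10 per the labels), dropped those with several matches, and deposited raw counts per transcript, each the number of alignments that touch its exons. The authors also deposited this count as a fraction of a library total, and 2 other columns, transcript length and uncovered bases, which were used as given, while the fractions served only to recover the library totals. The submitters' processing notes also name CASAVA 1.8.2. The positions in the files are of an unknown build, so coordinates come from GENCODE M21 on GRCm38 through the transcript identifiers, which matched 69375 of 82813 transcripts (83.8%).

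Each gene took its transcript with the largest total count. Size factors by the median-of-ratios method (1.145, 0.926 and 0.953 for C57BL6 WT, C57BL6-BALB/c WT and Cx30-/-) then scaled the counts. Ratios used no pseudocount. A gene entered a comparison when either library reached 50 normalized counts. Intervals are exact Clopper-Pearson intervals of the raw counts (scipy 1.17.1). PCR reads are not independent molecules, so they cover counting error only. The test across genes used edgeR 4.0.16 under R 4.3.3 (quasi-likelihood fit, TMM, filterByExpr, Benjamini-Hochberg), with DESeq2 1.42.0 as an alternative. Both steps were tested on simulated counts. Alternatives were other scalings, other ways to choose a gene's transcript, a pseudocount of 1, other count minimums and other fold thresholds. Genes named are the members, their relatives, the genes of lowest and highest ratio in each list, those past 2-fold in both comparisons of Cx30-/-, the 5 nearest genes and Gjb6, and further examples were chosen after their values were seen. The members and the lists were chosen with earlier results of these data known.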

Additional observations from a re-analysis of the deposited data

How the results depend on the processing

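The count of members lower in Cx30-/- vessels stayed within 1.5 times in every alternative tried, and the size of the difference did not. Scaling to the endothelial genes moved the median of all genes by -0.26 (Cx30-/- over C57BL6 WT), -0.996 (over C57BL6-BALB/c WT) and 0.74 (between the WT libraries). The members' medians then became -0.6060, -1.7596 and 0.9724, with 1, 9 and 5 members past 2-fold and 0 lower between the WT libraries, and Stmn2 was lower in both comparisons of Cx30-/-. With the longest transcript of each gene the medians were -0.5306, -0.9205 and 0.5107, with 3 members past 2-fold against C57BL6-BALB/c WT and 1 between the WT libraries. Among them, Gad1 and Snap25 were then represented by transcripts with a retained intron and few counts. In C57BL6 WT, C57BL6-BALB/c WT and Cx30-/- vessels these were 100, 158 and 45 for Gad1 and 189, 308 and 118 for Snap25. With a gene's transcripts summed, the median against C57BL6 WT was -0.4129 and 2 members passed 2-fold against C57BL6-BALB/c WT. A threshold of 1.5-fold gave 3, 7 and 1 members. The sign of Syt1 between the WT libraries, at -0.01, turned with the upper quartile, the sum of transcripts and the endothelial scaling. In edgeR, 9 genes became 35 with DESeq2's size factors, 135 without a filter and 14 with transcripts summed, with 0 members called in each. Leaving out a WT library was not run, since it leaves 1 library against 1 and no residual degree of freedom for a test, and the ratios against each WT library alone are those given in the report. No paired analysis was possible because each group is 1 library. Read depth gave narrow intervals, and the number of pools, not depth, limits what can be said of the groups.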
